A study of Mus musculus with 8 samples.

Results

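Of 21027 mouse protein-coding genes, 9 were examined for the accessible regions around them that were no longer called when the transcription factor GLI1 was induced in cardiac progenitor cells: Atp6v1b1, Ntn1, Bend6, Zfp703, Thap1, Rab37, Slc38a6, Prkch and Dnm3. They were selected on measured values, because each was the nearest gene, within 350 kb, to a strong accessible region present in the control cells and absent with GLI1. Their loss of those regions is therefore how they were found and is described here without a test. Of 172983 peaks in 3 lists, 265 had a summit assigned to them, namely 95 with GLI1 at day 7, 117 in day 7 controls and 53 in day 5 controls.

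Open chromatin was mapped with ATAC-seq (a transposase, Tn5, cuts accessible DNA and tags it with adapters) in cardiac progenitors differentiated in culture from mouse embryonic stem cells of 1 line, labelled GLI1-FTA, on the A2Lox.cre strain. The D7 GLI1 OE group (3 libraries) received 500 ng/ml doxycycline for 48 hours up to day 7 to induce GLI1, the D7 control group (3 libraries) was left untreated to day 7, and the D5 control group (2 libraries) was left untreated to day 5. All 3 groups are of this inducible line, and only the first received doxycycline, so effects of the drug itself cannot be told apart from those of GLI1. Each group is represented by 1 peak list pooled over its libraries, so there is no spread between replicates and no p-value between conditions. That the D7 control list is of day 7 is inferred from the matching names of the control and doxycycline lists.

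GLI1 is a zinc finger transcription factor through which Hedgehog signals reach the genome. In the Hedgehog pathway a secreted ligand binds the receptor PTCH1, which releases Smoothened, and GLI proteins then activate or repress target genes. Hedgehog signalling acts on progenitors of the second heart field, which build the outflow tract and part of the atria. The 9 genes belong to no common pathway. Netrin-1, made by Ntn1, is a secreted guidance cue. Zfp703, Thap1 and Bend6 encode nuclear regulators. Rab37 and Dnm3 encode GTPases of vesicle traffic, Prkch a lipid-activated kinase, and Slc38a6 and Atp6v1b1 membrane transport proteins.

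The lists held 65318, 59488 and 48177 peaks for D7 GLI1 OE, D7 control and D5 control, which merged into 43043, 38771 and 39436 regions. The background was 4.70 reads per base with GLI1 and 4.56 in the D7 control, and the weakest peak in either D7 list had 13 reads at its summit. A region missing from a D7 list was thus below the authors' threshold and not necessarily closed, and in bulk samples fewer cells with an open site and less opening per cell cannot be told apart. The D5 list was called in another way, so its folds are on another scale. The annotated Gli1 gene on chromosome 10 overlapped 8 regions with GLI1 (folds 9.30 to 31.9) and 4 in the D7 control (folds 3.96 to 13.3). Whether reads from the inducible GLI1 sequence of the line contribute to these regions was not tested. Of 12 cardiac progenitor markers, 9 had a region within 1 kb with GLI1 (not Nkx2-5, Tbx5 or Hand1) and 11 in the D7 control (not Hand1). Cardiomyocyte markers with a region were 3 of 8 with GLI1 and 5 of 8 in the D7 control. Pluripotency markers were 3 of 6 in both, and Pou5f1 and Nanog had none in any list. Endoderm markers with a region were 5 of 6 in both D7 lists, and endothelial and blood markers were 5 of 7 with GLI1 and 6 of 7 in the D7 control. Neural markers with a region were 5 of 5 with GLI1, 4 of 5 in the D7 control and 5 of 5 at D5. For cardiac progenitor markers the D5 count was 10 of 12, and for cardiomyocyte markers 4 of 8. It was 4 of 6 for pluripotency, 3 of 6 for endoderm, and 6 of 7 for endothelial and blood markers. The share of all genes with such a region is not given here, so no count is read as enrichment of a cell type. The part of these other cell types in the results was not tested.

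Regions present in the D7 control list with no overlapping region in the GLI1 list are called lost, and the opposite class gained. The fold is the authors' enrichment of reads at the summit over the background. In the D7 lists it is tied to 1 whole number of reads, given below with an exact Poisson 95% interval. Such intervals cover counting error only, since sequenced fragments from amplified libraries are not independent molecules. All coordinates are from the mm10 build (GRCm38.p6 in the annotation).

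Atp6v1b1 had the tallest of all 12271 lost regions. It encodes the B1 subunit of the V-ATPase proton pump, known from acid-secreting cells of the kidney. The region at chr6:83748720-83749997 lay inside the gene, 6.37 kb from the start site. It was absent with GLI1, had a fold of 41.4 in the D7 control (229 summit reads, 200 to 261) and was absent at D5. The weaker regions chr6:83745645-83746208 and chr6:83750115-83750591, with folds of 3.06 and 6.12 in the D7 control, were absent from the GLI1 and D5 lists as well. The gene therefore held 0 regions with GLI1, 3 in the D7 control and 0 at D5. The nearest GLI1 region was 24.9 kb away. Of 4645 genes with at least 3 D7 control regions, 22 had no GLI1 region.

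No list held a region within 1 kb of either end of Atp6v1b1, its start site included. The promoter sequence is shown because the control cells had the tall region inside this gene with no called region at its start. The window is chr6:83742767-83743066 on the plus strand, from RefSeq (GRCm38.p6), with capitals for a forkhead match (GTAAACA, read on the other strand, starting 98 bases before the start site) and a GATA match (AGATAA, starting at the start site, counted as 1).
Atp6v1b1 promoter: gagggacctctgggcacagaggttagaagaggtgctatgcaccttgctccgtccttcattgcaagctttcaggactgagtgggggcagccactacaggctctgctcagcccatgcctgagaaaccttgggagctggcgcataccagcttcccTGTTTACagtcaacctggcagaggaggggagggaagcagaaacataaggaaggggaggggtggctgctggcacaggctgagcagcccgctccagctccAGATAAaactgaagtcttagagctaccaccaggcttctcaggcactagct
Searched on both strands, these motifs occurred in 3.65% and 11.2% of 32851 promoter windows of 300 bases. A GLI match (GACCACCCA) was in 0.253% of them and in none of the windows of the 4 member genes that the table holds.

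Ntn1 encodes netrin-1, the guidance cue read by the receptors DCC and UNC5. Its lost region at chr11:68320740-68322042, inside the gene and 65.3 kb from its right end, was absent with GLI1 and had a fold of 33.7 in the D7 control (186 reads, 160 to 215). It was absent at D5, where the nearest region was 57.4 kb away. The neighbouring GLI1 regions were weak, with folds of 2.63 at 6.88 kb on the left and 3.34 at 63.3 kb on the right. At the right end of the gene the order was the other way, since chr11:68385754-68387877 had a fold of 33.4 with GLI1 and 25.7 in the D7 control. Among regions with their summit inside the gene, the highest fold was 7.72 with GLI1 and 33.7 in the D7 control. The region at the right end overlaps the gene but has its summit just outside in both D7 lists, so it is not among them.

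Bend6, whose product is a BEN domain protein that represses Notch target genes in mouse neural cells, had the third region. The lost region at chr1:33897590-33899298, 9.49 kb from the start site inside the gene, was absent with GLI1, had a fold of 30.6 in the D7 control (169 reads, 144 to 196) and was absent at D5. Only 7.61 kb away, the region at the gene's start was nearly unchanged in height, with a fold of 30.9 with GLI1, 29.5 in the D7 control and 8.91 at D5. Its summits with GLI1 and at D5 lie nearer to the overlapping gene Dst and are counted there, so Bend6 shows 0 GLI1 regions by the nearest-gene rule.

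The other 6 strongest lost regions were of lower height and stood at ranks 49 to 184 by fold, so "strongest" describes the first 3 genes literally and the others only as members of the upper tail. Rab37, a GTPase of secretory granules, had a fold of 15.7 at chr11:115101203-115102073 in the D7 control (86 reads) and no region there with GLI1. Zfp703, a zinc finger corepressor of the NET/Nlz family, had a fold of 15.3 at chr8:26868103-26869024 (84 reads, 67.0 to 104), 109 kb to the left of the gene. Prkch, the eta isoform of protein kinase C, had a fold of 14.4 at chr12:73632730-73633448 (79 reads), 48.3 kb inside its left end. These 3 regions were absent from the GLI1 and D5 lists.

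Thap1, a THAP zinc finger factor whose human counterpart is mutated in a form of dystonia, and Slc38a6, a member of the sodium-coupled amino acid transporter family, had equal folds. The Thap1 region at chr8:26255103-26255812 and the Slc38a6 region at chr12:73389218-73389826 both had a fold of 12.6 in the D7 control (69 reads each, 53.7 to 87.3). The first lay 91.2 kb and the second 27.5 kb to the right of its gene. Dnm3, dynamin-3, a GTPase that cuts membrane vesicles from their parent membrane, had a fold of 11.9 at chr1:162281874-162282747 (65 reads), deep inside the gene and 196 kb from the start site. None of these 3 regions was in the GLI1 or D5 list. Over all 9 genes, 0 of 9 strongest lost regions overlapped a D5 region. Among all 333 lost regions with a fold of at least 10, only 6.01% did, so this count lies near the background.

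**Figure D1:**
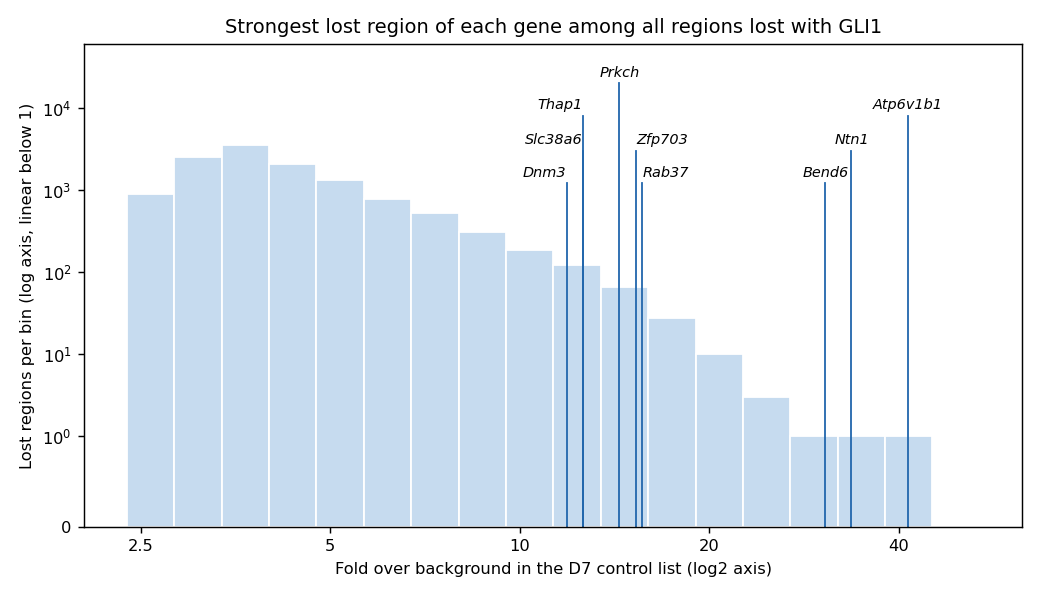
Number of lost regions (log axis, linear below 1) by fold over background in the D7 control list (log2 axis), with a vertical line at the strongest lost region of each gene. Atp6v1b1, Ntn1 and Bend6 stand alone at 41.4, 33.7 and 30.6, and the other 6 genes lie between 11.9 and 15.7.

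The surroundings of the regions differed from gene to gene. Next to the Slc38a6 region, a GLI1 region with a fold of 31.1 began 3.58 kb away, whereas the Prkch region was 34.5 kb and the Dnm3 region 30.9 kb from any GLI1 region. In 6 of the 9 genes the strongest lost region belonged to a run of 3 or more consecutive D7 control regions that were all lost. The run at Rab37 had 5 regions over 20.2 kb, of which 1 is assigned to the nested gene Cd300lf, and the run at Atp6v1b1 had 4 over 19.4 kb, reaching the neighbour Vax2. Over the genome 33.3% of lost regions, of any height, lay in a run of at least 3. The runs are made of the same lost calls by which the genes were picked, so this excess is not read further. At Bend6, Thap1 and Dnm3 the region was lost alone, with shared regions on each side.

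**Figure D2:**
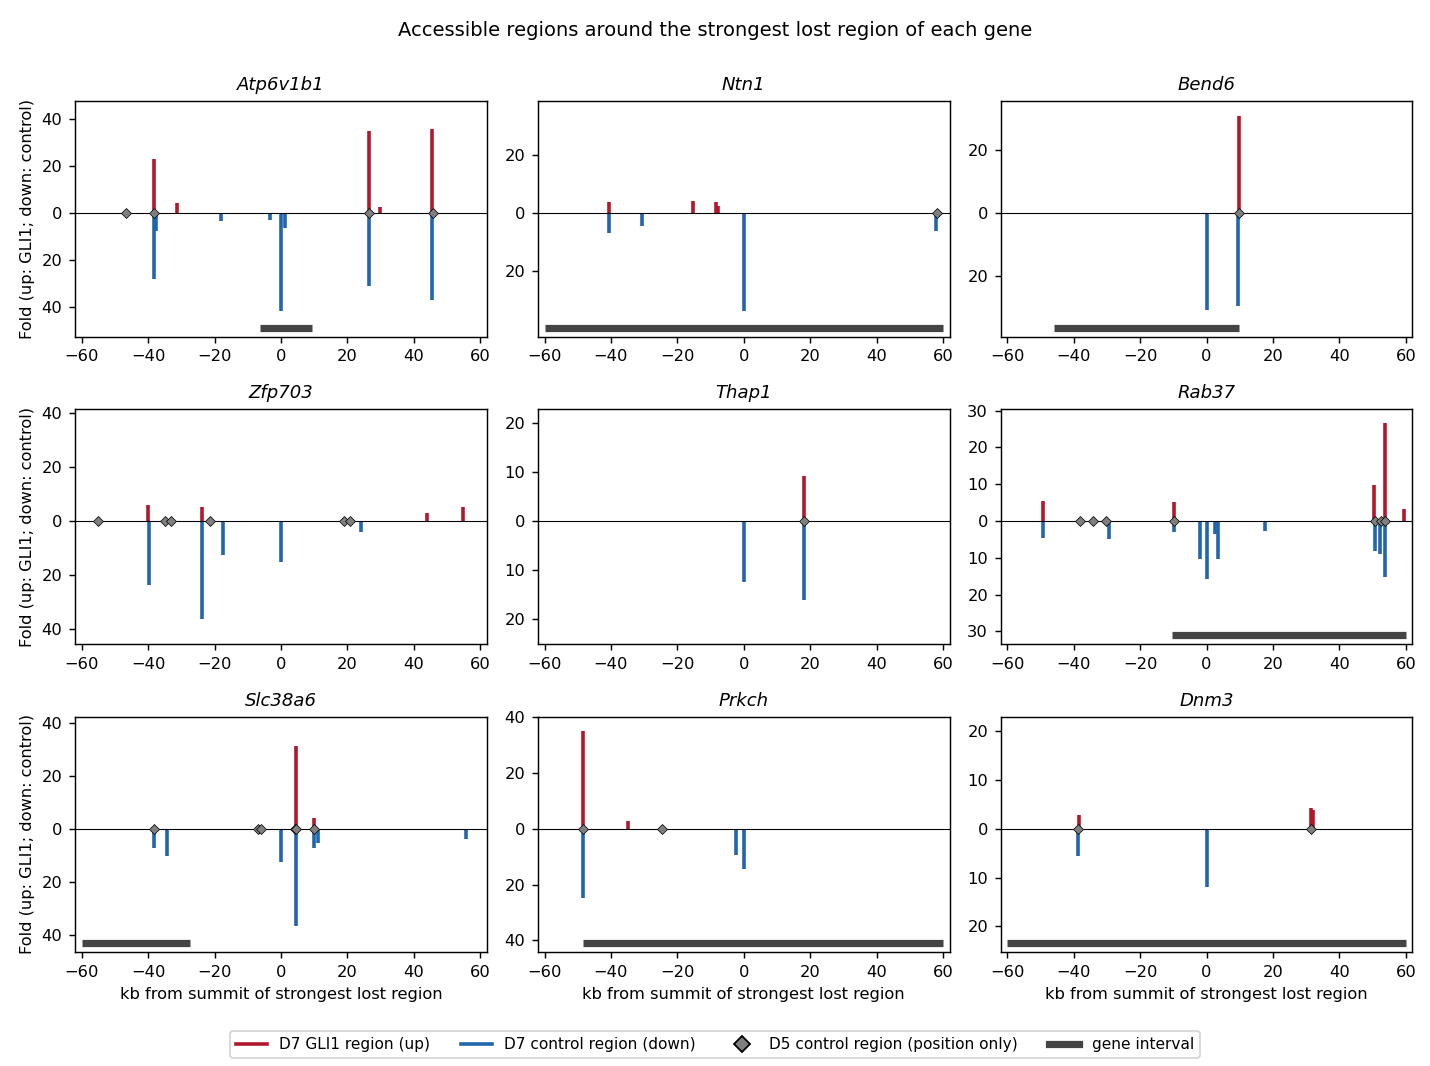
Regions within 60 kb of the summit of each gene's strongest lost region (at 0), drawn upward by fold for D7 GLI1 OE, downward for D7 control, with diamonds for the positions of D5 control regions and a bar for the gene interval where it falls in the window. In every panel the bar at 0 points down only, and tall regions with both an upward and a downward bar stand nearby at Atp6v1b1, Bend6, Rab37, Slc38a6 and Prkch.

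Counted over the 9 genes, the GLI1 list held 60 regions, the D7 control list 82 and the D5 list 44. Of the 82 control regions, 41 (50%, Wilson 95% interval 39.4 to 60.6) were lost, against 31.6% of all control regions, and 25 (30.5%) were lost and strong, against 7.75%. Strong means a fold of at least 4.91 for a lost region, which is 2 times the lowest fold of the GLI1 list. Both excesses follow from how the genes were picked and are not read further. A lost region can still lie close to a GLI1 region, as chr1:162008298-162008537 in Dnm3 did at 158 bases. Of the 60 GLI1 regions, 23 (38.3%, 27.1 to 51.0) were gained, against 39.0% of all GLI1 regions. Gained and strong, with a fold of at least 5.04, were 5 (8.33%), against 9.05%. The gained shares lay close to the background.

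The genes did not share 1 balance of gains and losses. Zfp703 had 3 gained and 9 lost regions, Thap1 2 and 6, Slc38a6 0 and 5, Prkch 1 and 4, Rab37 1 and 4, Atp6v1b1 0 and 3, and Bend6 0 and 1. Since the genes were picked for strong lost regions, this surplus of losses carries the choice of genes. Over the genome, 3188 of 15305 genes with a region in a D7 list had more lost than gained regions. At Ntn1 gained and lost were nearly equal, 5 and 4, and the gained ones were low, with folds of 2.46 to 4.21. Dnm3 went the other way, with 11 gained and 5 lost regions. These balances moved with the settings: gained minus lost at Dnm3 was 6, but 2 with peaks of −log10 q 5 or more and 1 with lists of equal length, and at Ntn1 it was 1, but −2 under both. At Thap1 it was −4, but −1 under both and within 100 kb, and at Zfp703 it was −6, but 0 within 100 kb. The covered length at Dnm3 was 9.63 kb with GLI1 and 7.93 kb in the D7 control, while at Zfp703 it was 8.31 kb with GLI1 and 14.5 kb in the D7 control. The strongest gained region at any of the 9 genes was chr8:26364425-26365084, 200.6 kb to the right of Thap1, with a fold of 11.6 with GLI1 (65 reads) and no region in the other lists.

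**Figure D3:**
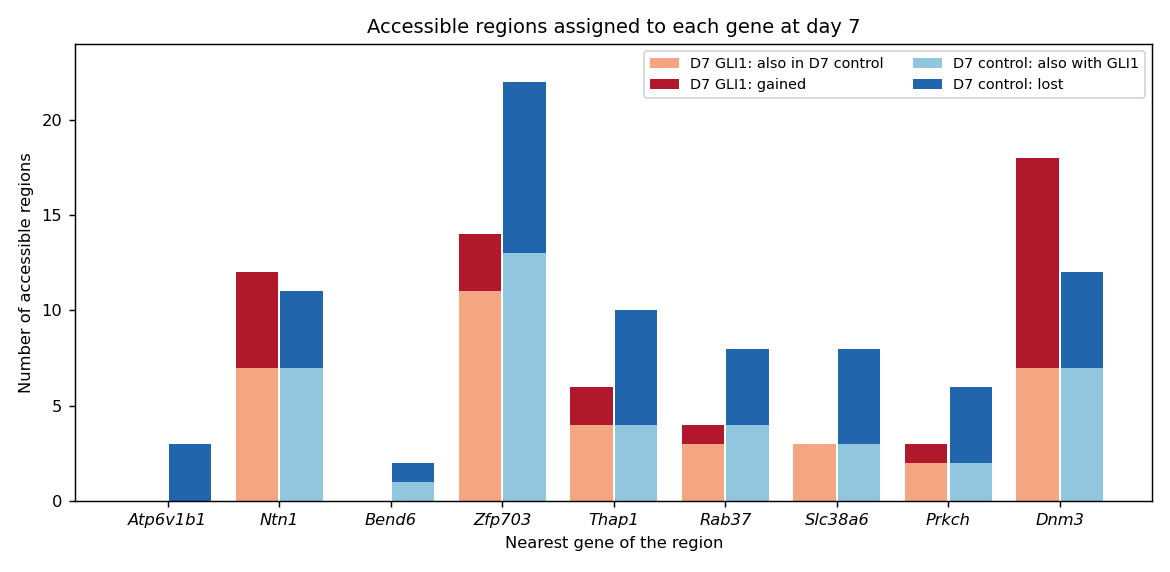
Number of accessible regions assigned to each gene in the D7 GLI1 OE list (left bar, gained part dark red) and in the D7 control list (right bar, lost part dark blue). Dnm3 and Ntn1 have more regions with GLI1 (18 and 12) than in the control (12 and 11), and the other 7 genes have fewer. With a stricter q or lists of equal length, the excess of gained over lost regions is smaller at Dnm3 and turns round at Ntn1.

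Thap1 and Zfp703 are neighbours on chromosome 8 with no other protein-coding gene in the 813 kb between them, so their distal regions form 1 landscape and their counts are not independent. Slc38a6 and Prkch flank Tmem30b on chromosome 12, which leaves 7 separate loci. Between Thap1 and Zfp703 the GLI1 list held 17 regions covering 10.9 kb, the D7 control list 30 covering 18.6 kb, and the D5 list 17 covering 4.32 kb. Regions with a fold of at least 10 numbered 3 with GLI1 and 9 in the D7 control. Of the 30 control regions 18 were lost, against 31.6% of all control regions. The interval holds the strong lost regions by which both genes were picked, so this excess is not read further. A window of 350 kb does not reach across this interval. The farthest Zfp703 control region inside the window lay 349.785 kb away with a fold of 4.14, and the GLI1 region that overlaps it had its summit at 350.09 kb, just outside, with a fold of 4.21. The farthest Thap1 control region inside lay at 315 kb (fold 4.32), and the next one, at 363 kb, had a fold of 3.96.

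Some distal regions left of Zfp703, among them the 2 tallest of the D7 control, were still called with GLI1 but at a lower height. The region chr8:26843693-26845224, 133 kb from the gene, had a fold of 5.09 with GLI1 (28 reads) and 36.2 in the D7 control (200 reads). Its read ratio, scaled to the backgrounds, was 0.136 (exact binomial 95% interval 0.0880 to 0.202). At chr8:26828059-26828956 the fold was 5.79 with GLI1 and 23.6 in the D7 control, a read ratio of 0.239 (0.157 to 0.354). At chr8:26804685-26805425 it was 3.86 with GLI1 and 11.9 in the D7 control, a read ratio of 0.313 (0.182 to 0.519). None of the 3 was in the D5 list. In contrast, the region over the left end of Zfp703 had a fold of 50.6 with GLI1 and 48.8 in the D7 control, a read ratio of 1.03 (0.870 to 1.22). Counting whole regions as lost or kept thus leaves out these lower regions of the gene. The lost regions chr8:26850453-26851276 (fold 12.8 in the D7 control) and chr8:26868103-26869024 stand on their right.

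**Figure D4:**
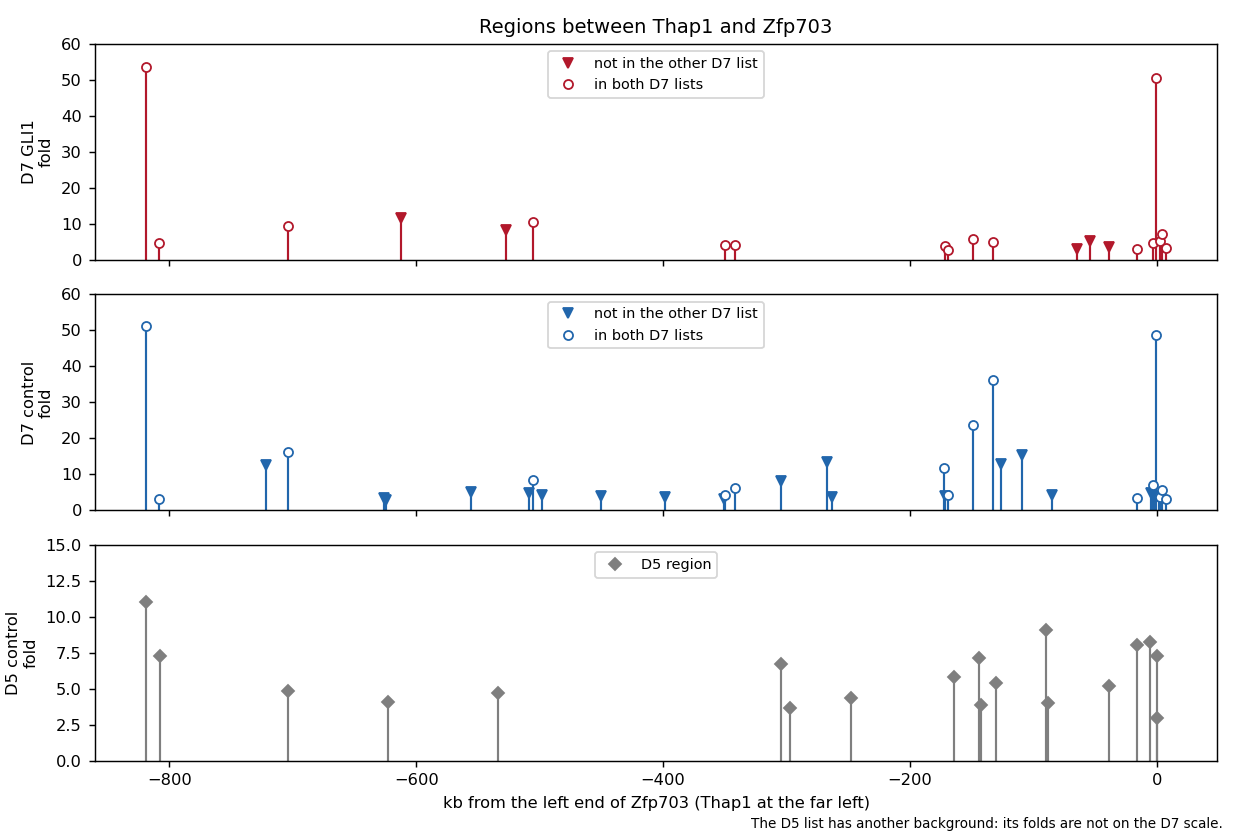
Fold of each region between Thap1 (far left) and Zfp703 (0) against distance in kb, for D7 GLI1 OE, D7 control and D5 control from top to bottom, with triangles for regions missing from the other D7 list and open circles for regions in both. The gene ends have folds of 48.8 to 53.7 in both D7 lists, whereas the control regions 109 to 149 kb left of Zfp703 are absent or low with GLI1.

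At one of the Thap1 lost regions the reference table holds part of the sequence. The region chr8:26468626-26469247, 305 kb to the right of the gene, was absent with GLI1 and had a fold of 4.86 in the D7 control. It overlaps the promoter window of the predicted gene Gm31983. Likewise a lost region of Slc38a6 at chr12:73444999-73445198 (fold 3.96 in the D7 control) overlaps the promoter window of the predicted gene Gm33929. These stretches are the parts of lost regions whose letters were at hand, chr8:26468626-26468809 on the minus strand and chr12:73445072-73445198 on the plus strand. They are all in lower case because none of the 7 motifs searched on both strands matched. Besides the forkhead, GATA and GLI motifs these were TEAD (GGAATG, in 14.7% of promoter windows), AP-1 (TGAGTCA or TGACTCA, in 5.20%), the E-box (CAGCTG) and the CTCF core (AGGGGGC).
Gm31983 stretch: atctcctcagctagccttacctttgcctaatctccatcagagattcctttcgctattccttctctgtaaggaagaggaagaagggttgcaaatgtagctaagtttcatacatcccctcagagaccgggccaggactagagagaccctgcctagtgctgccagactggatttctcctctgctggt
Gm33929 stretch: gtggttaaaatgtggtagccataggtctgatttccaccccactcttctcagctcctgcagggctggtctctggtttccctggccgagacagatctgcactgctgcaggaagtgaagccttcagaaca
No match says only that these letters do not hold the exact motif.

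Away from the lost regions, regions near the 9 genes had a typical balance between the D7 groups. Of 38 regions shared by both lists, the median ratio of fold, GLI1 over control, was 1.05, against 1.06 over all 24942 shared regions. The fold with GLI1 was at most 0.5 of control in 3 of 38 (7.89%), against 7.30% of all, and all 3 were the Zfp703 regions above. It was at least 2 times control in 1 of 38 (2.63%), against 4.17%. That region, chr1:162004436-162005663 inside Dnm3, had a fold of 13.5 with GLI1 and 6.30 in the D7 control, a read ratio of 2.17 (1.43 to 3.35). Both shares lay near the background. The balance was not the same at every locus. Among the 12 shared regions between Thap1 and Zfp703 the median ratio was 0.672, and 8 were lower with GLI1. That interval holds sites by which both genes were picked, so this is a description only.

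Shared regions within 1 kb of a gene end had a higher fold with GLI1 at every gene that had one assigned. The 9 such regions, 2 of them at Zfp703 and none at Atp6v1b1, had fold ratios of 1.04 to 1.72 with a median of 1.28. Over all 10881 shared regions at gene ends the median was 1.11, and 70.1% were higher with GLI1. Prkch had a fold of 34.9 with GLI1 and 24.7 in the D7 control, a read ratio of 1.41 (1.13 to 1.77). Slc38a6 had 29.8 with GLI1 and 21.4 in the D7 control, a read ratio of 1.39 (1.09 to 1.77). For Ntn1 the read ratio was 1.29 (1.03 to 1.62). The intervals of Slc38a6 and Ntn1 included 1.11, the median fold ratio over all gene ends, and that of Prkch began just above it. In the other 6 the interval of the read ratio included 1, as at Thap1, with a fold of 53.7 with GLI1 and 51.1 in the D7 control. Away from gene ends 14 of 29 shared regions were higher with GLI1 and 15 lower, with a median ratio of 0.975, against 1.002 over all 14061.

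The sequence table holds promoters of 4 of the 9 genes (Atp6v1b1, Bend6, Slc38a6 and Dnm3), and Slc38a6 is shown because its start had the largest fold ratio of these. Its window, chr12:73286598-73286897 on the plus strand, lies in a region with a fold of 29.8 with GLI1, 21.4 in the D7 control and 8.30 at D5. Capitals mark a match to the CTCF core (AGGGGGC, on the other strand, in 10.6% of promoter windows) and an E-box (CAGCTG, in 16.3%).
Slc38a6 promoter: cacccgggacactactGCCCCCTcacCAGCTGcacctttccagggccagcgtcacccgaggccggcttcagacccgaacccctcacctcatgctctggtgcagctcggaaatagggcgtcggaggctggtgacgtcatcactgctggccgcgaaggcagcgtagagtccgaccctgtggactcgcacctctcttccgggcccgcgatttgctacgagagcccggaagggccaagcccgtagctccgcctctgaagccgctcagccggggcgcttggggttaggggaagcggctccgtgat
At this gene 4 of the 8 regions counted in the D7 control were both strong and lost, against 7.75% of all control regions. That excess follows from how the genes were picked. Among the 4, chr12:73400545-73400766 (fold 5.40 in the D7 control) lay only 877 bases from a GLI1 region.

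**Figure D5:**
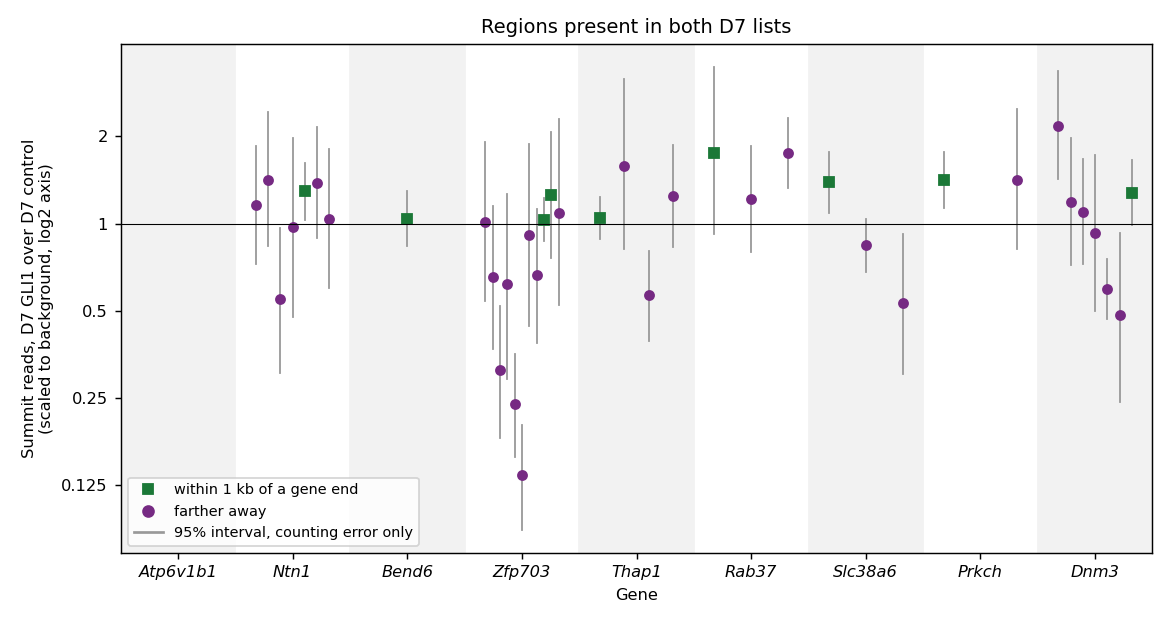
Summit reads of each shared region, D7 GLI1 OE over D7 control, scaled to the backgrounds (log2 axis), by gene and in order of position, with squares for regions within 1 kb of a gene end, circles for others, and bars for exact binomial 95% intervals of counting error. All 9 squares lie above 1, and the lowest circles are the 3 distal Zfp703 regions at 0.136, 0.239 and 0.313.

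In the D7 control the tallest region inside Dnm3 was not at the gene's own start but at Dnm3os, the long noncoding RNA on the opposite strand that is the source of miR-199a-2 and miR-214. The region chr1:162216474-162218236 had a fold of 20.01 with GLI1 (113 reads) and 33.3 in the D7 control (184 reads), and it was absent at D5. Its read ratio was 0.596 (0.467 to 0.757). At the start of Dnm3 itself the fold was 25.1 with GLI1, 19.6 in the D7 control and 13.9 at D5, a read ratio of 1.28 (0.986 to 1.65). The Dnm3os promoter window (chr1:162217373-162217672, plus strand) and the hairpin of miR-199a-2 (chr1:162217814-162217923) both lie in that region. They are printed because this is the one region of the 9 genes that holds a transcript's start and a microRNA and was lower with GLI1, and the seeds, bases 2 to 8, are in capitals.
Dnm3os promoter: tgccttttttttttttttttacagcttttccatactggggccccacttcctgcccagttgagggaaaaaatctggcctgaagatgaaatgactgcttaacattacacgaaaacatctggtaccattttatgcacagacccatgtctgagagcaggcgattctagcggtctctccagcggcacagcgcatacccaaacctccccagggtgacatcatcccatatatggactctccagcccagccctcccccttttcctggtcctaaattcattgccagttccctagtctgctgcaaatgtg
mmu-miR-199a-5p: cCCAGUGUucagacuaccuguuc
mmu-miR-199a-3p: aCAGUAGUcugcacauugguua
mmu-miR-214-3p: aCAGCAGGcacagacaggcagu
The 3 seeds differ, and none of the 7 motifs matched the promoter window. The hairpin of miR-214 lay outside any region, 2171 bases from the nearest GLI1 region and 5132 bases from the nearest D7 control region. The GLI1 regions on that side, chr1:162218568-162218774 (fold 4.91) and chr1:162220515-162221197 (fold 3.86), were gained.

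In Ntn1, the region chr11:68220716-68221420, which holds the hairpin of miR-6406, had a fold of 6.85 with GLI1 and 4.86 in the D7 control, and the interval of its read ratio, 1.42 (0.838 to 2.43), included 1. In Rab37, chr11:115153403-115155967 had a fold of 26.5 with GLI1 and 15.1 in the D7 control, a read ratio of 1.75 (1.33 to 2.32). This higher region stood in the same gene, to the right of its lost run. At Thap1, the distal region chr8:26272887-26274004 next to the strongest lost region had a fold of 9.30 with GLI1 and 16.2 in the D7 control, a read ratio of 0.567 (0.394 to 0.807). At Slc38a6, chr12:73393319-73394666 next to its strongest lost region had a fold of 31.1 with GLI1 and 36.7 in the D7 control, with an interval of the read ratio, 0.683 to 1.03, that included 1.

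The comparison of D7 control with D5 control addressed when these regions appeared. Of the 41 lost regions, 3 (7.32%, 2.52 to 19.4) overlapped a D5 region, against 8.95% of all lost regions, so most of the lost regions were called in the control only at day 7, as over the genome. The 3 were chr11:68379354-68379694 in Ntn1 (fold 6.12 at D7), chr8:26672625-26673616 left of Zfp703 (fold 8.10) and chr12:73351002-73351409 in Slc38a6 (fold 7.20). Opened regions, in the D7 control list but not at D5, were 60 of 82 (73.2%, 62.7 to 81.6), against 55.0% of all control regions. Since 38 of the 60 were lost regions, that share carries the choice of genes. Among the 41 control regions also present with GLI1, 22 were opened (53.7%, 38.7 to 67.9), against 38.3% of all such regions. Zfp703 gave 11 of the 22, from 13 regions, and the other 8 genes 11 from 28. Closed regions, at D5 but not in the D7 control, were 22 of 44 (50%, 35.8 to 64.2), against 50% of all D5 regions. The D5 list differs in calling, and its regions were narrower, since the median width was 441 bp with GLI1, 480 bp in the D7 control and 238 bp at D5.

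The D5 landscapes of the genes were unlike. Atp6v1b1 had no region at D5, and Bend6 had the one at its start. Zfp703 had 14 D5 regions, of which 10 were absent from the D7 control list. The closed ones included chr8:26887196-26887442, 90.01 kb left of the gene, with the highest D5 fold between Thap1 and Zfp703, 9.07. Prkch had 4 D5 regions, of which 3 inside the gene were in neither D7 list. Rab37 had 4, and all 4 were in both D7 lists.

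The other genes of the same families, 95 in 9 lists, were counted in the same way. They had 316 GLI1 regions, of which 128 (40.5%) were gained, and 295 D7 control regions, of which 100 (33.9%) were lost, against 39.0% and 31.6% over the genome. Gains outnumbered losses at 30 of these genes and losses outnumbered gains at 24, with a median difference of 0 over all genes. Netrin and its receptors had 39 gained (50.6%) and 22 lost (35.5%) regions. Of these, 6 gained and 1 lost were at the receptor gene Unc5c, and 7 and 3 at Dcc. Gains outnumbered losses at 7 genes of this list and losses outnumbered gains at 3, among them Ntn4 with 1 gained and 3 lost. The secretory Rab genes and their effectors had 17 gained (43.6%) and 4 lost (16.7%) regions. The SLC38 transporters had 5 gained (16.1%) and 11 lost (28.2%), among them 1 and 4 at Slc38a4. Both shares were below those over the genome. Dynamins and their partners had 13 gained (31.7%) and 20 lost (42.6%), with 2 and 6 at Snx9, a membrane-bending protein. Losses outnumbered gains at 7 genes of that list and gains at 1, Bin1, with 3 gained and 0 lost. Protein kinases C and D had 31 gained (52.5%) and 25 lost (48.1%), both shares above those over the genome. Within that list Prkd1 had 9 gained and 0 lost and Prkce 7 and 14. V-ATPase genes had 11 gained and 10 lost, BEN domain genes 8 and 3, THAP domain genes 2 and 3, and Zfp503, the close relative of Zfp703, 2 and 2.

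Judged by the height of a lost region, the genes most like the first 3 included Maats1 (fold 25.7 in the D7 control), Irx1 (23.2), Bcar3 (22.1) and Asb2 (22.1). Their regions took ranks 5 to 8, and none of the 4 was in the D5 list. Irx1, an Iroquois homeodomain factor, had its region 165 kb away. All 3 top regions and these 4 were among 13 lost regions with a fold of at least 20, of 333 with at least 10. Of the 333, 6.01% overlapped a D5 region.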

How the data were processed

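ATAC-seq was done on 8 libraries; per the labels' protocols 150000 cells were transposed for 30 minutes at 37 C. MACS2 2.1.1, Picard, Bowtie2 2.3.2, SAMtools 1.5 and the build mm10 are given in the submitters' processing notes. Each deposited list gives peaks with a fold (a ratio over background), a −log10 p and −log10 q, a score and a summit offset, all the authors' own values. Library read totals were not used here. Folds in both D7 lists were whole multiples of 1 step (tolerance 0.02), which gave summit reads and the backgrounds. The D5 list had a local background.

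Overlapping peaks were merged into regions that take the summit and fold of their peak of highest q. Sharing meant an overlap of at least 1 base. Summits were assigned to the nearest of 21027 RefSeq protein-coding genes (GRCm38.p6) within 350 kb, at distance 0 inside a gene. Strand is known only for genes in the promoter table, and exons were not used. The read ratio of a shared region was scaled to the 2 backgrounds. The members and lists were chosen with earlier results of these data known, and the threshold for strong regions comes from those. Of the family lists, Bend2, Thap6 and Thap8 did not match a gene in the annotation used. All 9 members are named. In each family list the 2 genes with the smallest and the 2 with the largest gained minus lost count could be named, and some of these are. So could the 5 other genes with the highest lost fold, of which 1 is not reported here. Promoter and microRNA sequences are from RefSeq. Intervals are Wilson, exact binomial or Poisson at 95%. Alternatives were a −log10 q of at least 5, an overlap of 50%, equal list lengths, a 100 kb window, the nearest gene end and a 1 kb margin. Scripts used Python 3.11.15, pandas 2.3.3, numpy 2.4.6, scipy 1.17.1 and statsmodels 0.14.6, and the overlap and assignment steps were tested on simulated data.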

Additional observations from a re-analysis of the deposited data

How the results depend on the processing

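The 9 strongest lost regions stayed lost under the 4 alternatives recomputed for them: the stricter q, the 50% overlap, equal lengths and no GLI1 region within 1 kb. None of these could have turned out otherwise, so they are no test of the losses. The stricter q and equal lengths remove peaks from both D7 lists and add no GLI1 peak. The 9 regions had a −log10 q of 48.6 or more in the D7 control, far above the stricter q. The 50% overlap only makes sharing harder. The smallest gap from any of the 9 to a GLI1 region was 3.58 kb, at Slc38a6, beyond the 1 kb margin. The 100 kb window would not assign the Zfp703 region, at 109 kb. Of the other values over the 9 genes, the count of closed regions was 10 with peaks of −log10 q 5 or more and 14 within 100 kb, against 22 in the report, and gained regions were 15 with lists of equal length (48177 peaks each), against 23. At Ntn1, gained minus lost was 1 in the report and −2 both at that q and with equal lengths. The difference at Zfp703 was 0 within 100 kb, against −6. The difference at Thap1 was −1 under each of these 3 settings, against −4, and at Dnm3 it was 2 and 1 at the stricter q and with equal lengths, against 6. Gained regions below the stricter q were those with −log10 q of 1.48, 1.95 and 2.46 at Ntn1 and 1.95, 2.46 and 4.15 at Dnm3. Lost regions below it at Thap1 had 2.59 and 4.32. Some shared regions also changed class when their weaker partner fell below it. Why equal lengths moved the counts, or the stricter q the closed regions, was not tested. At the other 5 genes gained minus lost stayed negative under all alternatives run, between −1 and −5. That sign carries the choice of genes for their lost regions. No paired analysis was possible because the deposited lists pool the numbered libraries of a group, and no library could be left out. Absence means no called peak, and the weakest called peak of either D7 list had 13 summit reads. Comparisons with D5 carry its different calling.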
